A study of Mus musculus with 3 samples.

Results

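Among the regions bound in a Runx1 chromatin immunoprecipitation (ChIP-seq) of mouse spinal cord, 355 of the 13194 called in replicate 3 were 2 kb wide or more. They are called broad regions here. They were selected on their width in replicate 3, as the end minus the start of each region called by the authors, so widths, numbers of summits and folds in that replicate describe the selection and are given without a test. The broad regions made up 2.69% of the regions of replicate 3, 15.8% of the length they covered and 14.4% of their 20564 summits.

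Each of the 3 replicates was 1 immunoprecipitation with 9 µg of a rabbit polyclonal Runx1 antibody. About 10 µg of chromatin went into each, from 10 pooled spinal cords of male C57BL/6J mice aged 8 to 10 weeks, fixed in pools of 5 cords. All 3 replicates form 1 group that differs in no treatment or genotype, and no untreated, input or knockout library was among the samples used here. The series title sets the study in microglia and opioid signalling, while the chromatin came from all cells left after debris was removed from dissociated cords. The labels do not say whether replicates shared animals, so differences between them may be technical. Replicate 3 carries the antibody text where its tissue should stand, so only its title places it in the group.

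Runx1 is a DNA-binding transcription factor with a Runt domain that works with the partner Cbfb, is central to blood cell formation and is expressed in microglia, the resident macrophages of the nervous system. A transcription factor bound at a single site usually gives a narrow ChIP-seq peak. Regions that run for kilobases with many local maxima (summits) are known from broad histone marks, from clusters of enhancers and from long open promoters of developmental genes, and also from regions where chromatin is recovered easily whatever the antibody.

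The lists of the replicates differed in size. Replicates 1, 2 and 3 held 451, 1641 and 13194 regions with median widths of 335, 425 and 470 bp. The median background level at the summits, solved from the deposited values, was 3.47, 4.12 and 5.66 fragments. Regions of 2 kb or more numbered 0 in replicate 1, 32 in replicate 2 and 355 in replicate 3, and every broad region below is therefore defined by replicate 3 alone. A region absent from replicate 1 or 2 was not called there. Deeper coverage also raises the chance that neighbouring peaks are called as 1 region, and its part in the widths was not tested.

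The sequences below show what lies under the broad regions before their values are given. Promoter sequences are from RefSeq (GRCm38.p6), run 5′ to 3′ on the strand of the gene and span 250 bases before to 50 bases after the start. Capitals mark the RUNX core TGTGGT or the E-box CACGTG, each searched on both strands. The first 4 promoters lie in broad regions and overlap regions of replicates 1 and 2, some only in part. Bahcc1 (chr11:120232697-120232996, plus strand) encodes a chromatin protein with a BAH domain. 2900052L18Rik (chr11:120231568-120231867, minus strand) is a transcript of the same broad region. The regions of replicates 1 and 2 that overlap its promoter end at 120231646 and 120231666, so its marked RUNX core lies outside both. Zeb2 (chr2:45110228-45110527, minus strand) encodes a zinc finger homeobox repressor. Rcbtb1 (chr14:59200978-59201277, plus strand) encodes a protein with RCC1 repeats and a BTB domain. The last 2 lie in broad regions and overlap regions of replicate 2. Meis1 (chr11:19018920-19019219, minus strand) encodes a homeodomain cofactor of Hox proteins, and Gpr37 (chr6:25689931-25690230, minus strand) a receptor of oligodendrocytes.
Bahcc1: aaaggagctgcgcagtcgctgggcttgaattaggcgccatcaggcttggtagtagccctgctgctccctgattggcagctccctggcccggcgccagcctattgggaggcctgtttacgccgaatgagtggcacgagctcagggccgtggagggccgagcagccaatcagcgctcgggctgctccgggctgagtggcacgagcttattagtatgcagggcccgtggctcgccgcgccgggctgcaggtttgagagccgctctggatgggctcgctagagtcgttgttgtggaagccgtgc
2900052L18Rik: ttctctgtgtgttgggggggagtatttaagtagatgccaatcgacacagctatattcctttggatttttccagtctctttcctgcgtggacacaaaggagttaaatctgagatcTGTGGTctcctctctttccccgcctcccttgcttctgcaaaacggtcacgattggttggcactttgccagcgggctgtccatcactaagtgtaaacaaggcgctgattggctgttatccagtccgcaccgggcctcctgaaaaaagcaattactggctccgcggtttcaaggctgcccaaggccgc
Zeb2: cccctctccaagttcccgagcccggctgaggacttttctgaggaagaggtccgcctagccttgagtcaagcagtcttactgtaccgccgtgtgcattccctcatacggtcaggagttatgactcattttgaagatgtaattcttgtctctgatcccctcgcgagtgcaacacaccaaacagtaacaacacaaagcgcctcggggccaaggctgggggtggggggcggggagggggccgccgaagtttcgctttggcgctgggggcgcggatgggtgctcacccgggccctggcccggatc
Rcbtb1: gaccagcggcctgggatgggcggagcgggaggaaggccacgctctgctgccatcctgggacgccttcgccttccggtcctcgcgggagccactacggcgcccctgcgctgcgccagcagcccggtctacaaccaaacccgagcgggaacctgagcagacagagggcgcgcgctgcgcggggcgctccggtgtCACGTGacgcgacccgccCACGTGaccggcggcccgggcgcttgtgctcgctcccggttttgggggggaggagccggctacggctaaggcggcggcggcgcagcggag
Meis1: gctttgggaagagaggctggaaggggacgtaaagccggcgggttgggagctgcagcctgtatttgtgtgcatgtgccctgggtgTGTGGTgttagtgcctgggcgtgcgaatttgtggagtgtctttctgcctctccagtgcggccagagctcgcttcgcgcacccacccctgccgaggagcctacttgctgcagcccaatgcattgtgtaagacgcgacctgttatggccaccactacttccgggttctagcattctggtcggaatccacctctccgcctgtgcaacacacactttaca
Gpr37: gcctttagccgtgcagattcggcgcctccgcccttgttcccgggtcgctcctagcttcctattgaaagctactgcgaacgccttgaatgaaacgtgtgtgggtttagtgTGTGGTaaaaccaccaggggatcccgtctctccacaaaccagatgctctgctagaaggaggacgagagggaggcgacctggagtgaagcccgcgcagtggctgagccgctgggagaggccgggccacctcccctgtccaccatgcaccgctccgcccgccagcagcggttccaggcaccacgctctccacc

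The RUNX core stood in the promoters of 2900052L18Rik, Meis1 and Gpr37, an E-box stood 2 times in that of Rcbtb1, and neither stood in those of Bahcc1 and Zeb2. The promoter table held 257 promoters that lie inside broad regions. Of these, 24 (9.34%, 95% interval 6.36 to 13.5%) held the RUNX core, against 10.2% of 2642 promoters inside narrower regions and 16.8% of all 32851 promoters of the same length. The E-box stood in 24 (9.34%) of the promoters inside broad regions, in 15.8% of those inside narrower regions and in 7.15% of all promoters. Median GC content was 62.0% in broad regions, 62.7% in narrower regions and 52.7% in all promoters, with 21, 24 and 7 CpG dinucleotides per promoter. A match is only a description of these letters, and a promoter without one may hold it elsewhere in its region.

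Broad regions also held 13 of the 1005 miRNA hairpins of the RefSeq sequence table, of which 51 lay in any region of replicate 3. The gene Mir124a-2 is not among the 13 and lies whole in another broad region. Mature sequences of 7 of their miRNAs follow, with the seed (bases 2 to 8) in capitals, because several lie in the widest regions or belong to oligodendrocyte loci. The 20 mature miRNAs of these hairpins had 20 different seeds.
miR-9-5p: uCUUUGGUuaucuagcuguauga
miR-9-3p: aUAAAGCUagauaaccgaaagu
miR-219a-5p: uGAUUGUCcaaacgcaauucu
miR-338-3p: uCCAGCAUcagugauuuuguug
miR-10a-5p: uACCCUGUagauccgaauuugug
miR-196b-5p: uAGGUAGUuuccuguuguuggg
miR-125b-5p: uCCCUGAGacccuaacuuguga

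miR-9, a miRNA of neural progenitors, is encoded by Mir9-2 inside the 11728 bp region assigned to C130071C03Rik, 606 bp from its strongest summit. miR-219a-5p, which promotes oligodendrocyte differentiation, lies 120 bp from the strongest summit of a region of 3797 bp. Folds over background at that locus were 6.79 in replicate 3 and 6.39 in replicate 2, and replicate 1 had no region. miR-338, another miRNA of oligodendrocytes, lies in a region of 3269 bp within Aatk, a kinase gene, with folds of 5.75 in replicate 3 and 4.43 in replicate 2. The region of miR-125b-1, assigned to 3110039I08Rik, had folds of 5.81 in replicate 3 and 4.05 in replicate 2. miR-10a and miR-196b lie between Hox genes, in the regions assigned to Hoxb4 and Hoxa10. Each of these broad regions overlapped a region of replicate 2 somewhere along its length, which need not be at the miRNA. A region of replicate 2 covered both miR-9 sequences. Those of miR-10a-5p and miR-196b-5p lay outside all regions of replicate 2, in stretches that replicate 2 did not call. For miR-219a-5p, miR-338-3p and miR-125b-5p, coverage of the miRNA itself by replicate 2 was not measured.

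Broad regions had a median width of 2874 bp (95% interval 2766 to 3090 bp, quartiles 2279 and 4276 bp), against 460 bp for the 12839 narrower regions. Of the 355, 58 reached 5 kb and 10 reached 10 kb. They held 2 to 64 summits each with a median of 7, whereas 72.8% of narrower regions had 1 summit and none had more than 6. Neighbouring summits in broad regions lay a median of 392 bp apart (quartiles 281 and 544 bp), and there were a median of 2.21 summits per kb. The fold over background of the strongest summit, as the authors' peak caller gave it, had a median of 6.28 in broad regions (quartiles 5.27 and 7.91, range 3.41 to 18.2) and 3.78 in narrower regions. The highest fold of the replicate, 24.5, belonged to a narrower region. Of the 2960 summits in broad regions, pooled over regions, 81.3% had at least 50% of the fold of the strongest summit of their region. The lowest fold called in a broad region was 2.31, which limits how low this share can be.

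The width limit cut through a continuum. Of the 6 broad regions of 2001 to 2015 bp, Gm36967 is described with the regions shared by all replicates, and the others were assigned to Grik2 (a kainate receptor subunit), Omg (oligodendrocyte myelin glycoprotein), Slco3a1 (an organic anion transporter), Cmip and Rnf220 (a ubiquitin ligase), with folds of 5.72, 5.52, 4.96, 3.41 and 5.61. The 5 widest regions below the limit measured 1984 to 1999 bp and were assigned to Tmem178b, Tob1 (an antiproliferative factor), Gatm (a creatine synthesis enzyme), Brinp3 and Fth1 (ferritin heavy chain), with folds of 4.93, 3.60, 6.29, 5.57 and 6.66. Inside the limit Gm36967 and Omg overlapped a region of replicate 2, and outside it Tob1 did.

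The overlap with the other replicates was not part of the selection. In replicate 2, a region overlapped 231 of the 355 broad regions by 1 bp or more (65.1%, with a Wilson interval of 60.0 to 69.8% at 95%), against 8.86% of narrower regions and 10.4% of all regions of replicate 3. In replicate 1, a region overlapped 56 (15.8%, 12.4 to 19.9%), against 2.76% of narrower regions and 3.11% of all. Both replicates overlapped 52 broad regions (14.6%, 11.4 to 18.7%), against 1.46% of narrower and 1.81% of all regions. The remaining 120 (33.8%) overlapped neither. Intervals cover counting error only, since regions of 1 library are not independent samples.

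A wide region meets others more easily because of its length, so the covered share was also measured. Regions of replicate 2 covered 23.6% of the length of broad regions and 6.56% of that of narrower regions. Regions of replicate 1 covered 2.41% and 1.73%. The share of regions overlapping each replicate was higher in each wider class on both sides of the 2 kb limit. Overlap with replicate 2 was 3.10% below 500 bp, 36.7% from 1500 to 2000 bp, 52.9% from 2 to 3 kb, 71.8% from 3 to 5 kb and 91.4% at 5 kb or more, and the covered share in those classes was 2.39%, 12.1%, 16.4%, 20.9% and 33.0%. Median fold in replicate 3 was also higher in each wider class, at 3.44, 5.35, 5.60, 6.53 and 8.88. Width and strength therefore moved together, and which of them goes with the overlap was not tested. For replicate 1 the covered share was 0.880%, 2.37%, 2.93%, 2.80% and 1.57%, which did not follow width above 1500 bp.

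**Figure D1:**
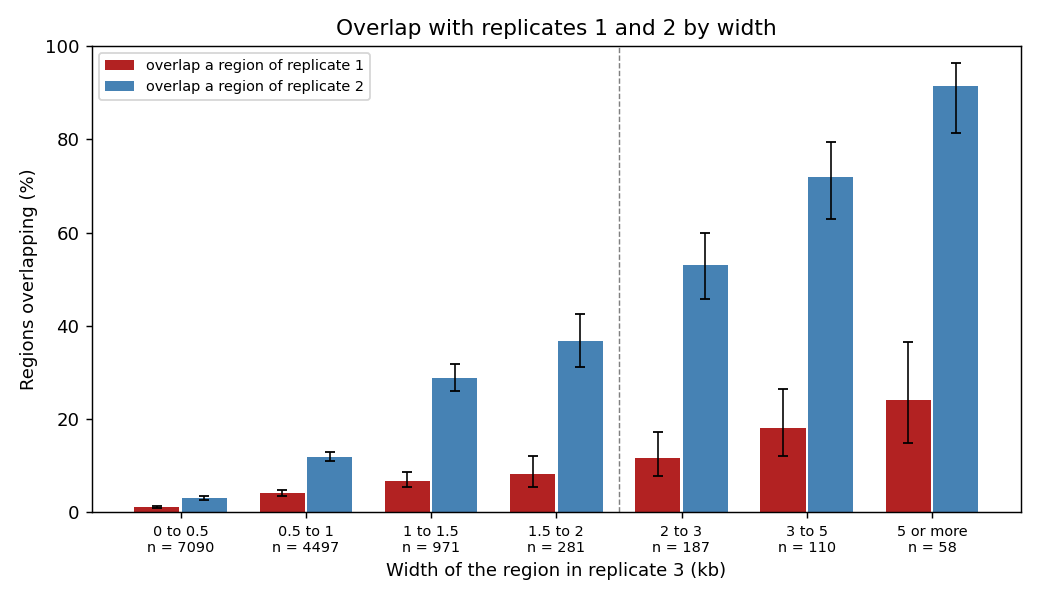
Bars give the percentage of regions of replicate 3 that overlap a region of replicate 1 or of replicate 2 by at least 1 bp, in classes of width in replicate 3 (kb), with 95% Wilson intervals and the number of regions under each class; the dashed line is the 2 kb limit. Overlap with replicate 2 climbs from 3.10% in the narrowest class to 91.4% in the widest, and overlap with replicate 1 from 1.11% to 24.1%.

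Regions of the other replicates also differed by where they fell. Here a region counts as inside another if the 2 overlap by at least 1 bp, so it may run past the edge. The 378 regions of replicate 2 inside broad regions had a median width of 591 bp (539 to 635), against 411 bp (399 to 425) for the 1134 inside narrower regions and 330 bp for the 129 outside both. Their median fold was 4.08 (3.97 to 4.25), against 4.00 (3.96 to 4.06) inside narrower regions, with intervals that overlap. All 32 regions of replicate 2 that themselves reached 2 kb overlapped broad regions. The widest of them measured 5035 bp at Zeb2, 4453 bp at Meis1 and 4001 bp at Qk, the gene of the RNA-binding protein quaking. In replicate 1 the 69 regions inside broad regions had a median width of 384 bp (345 to 478), against 331 bp (314 to 346) inside narrower regions, and a median fold of 4.76, against 4.90. The strongest regions of replicates 1 and 2, with folds of 36.8 and 26.7, fell in narrower regions. Distances between the strongest summits of 2 replicates were not measured in narrower regions, so those in broad regions are only a description. Where both replicates had a region, their strongest summits were compared. Those of replicates 3 and 2 lay a median of 619 bp apart in 231 broad regions and within 200 bp in 54 (23.4%), and those of replicates 3 and 1 lay 522 bp apart in 56 and within 200 bp in 20 (35.7%).

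Most broad regions lay at promoters. The authors placed 318 (89.6%, 86.0 to 92.3%) in the class within 1 kb of a start, against 62.6% of all regions. A further 14 lay 1 to 2 kb and 5 lay 2 to 3 kb from a start. Introns held 9 (2.54%, against 15.8% of all), distal intergenic sequence 5 (1.41%, against 9.67%), exons 2, and the classes 3′ UTR and downstream 1 each. A wide region reaches a start more easily, and among regions of 1500 to 2000 bp the promoter share was 72.2%. By assigned gene, 294 regions (82.8%, against 79.0% of all regions) had a coding gene. A processed transcript, a class of long noncoding RNA, was assigned to 18 (5.07%, against 1.74% of all regions). Other noncoding classes were at 12 for lincRNA (3.38%, against 5.62% of all regions) and 14 for antisense RNA (3.94%, against 3.46%).

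Most broad regions extended downstream of the start to which they were assigned. Some held other starts of the same gene downstream of the assigned one, as at Zeb2. How many did so was not measured, so the downstream part can include sequence around these other starts. Of the 355, 280 covered the start to which they were assigned, and these reached a median of 2175 bp downstream and 763 bp upstream of it. In 217 of them (77.5%, 72.3 to 82.0%) the downstream part was longer, against 50.9% of 5466 narrower regions covering a start, whose medians were 257 bp downstream and 262 bp upstream. The share with a longer downstream part was 52.7% below 500 bp, 47.8% from 500 to 1000 bp, 53.5% from 1000 to 1500 bp, 62.8% from 1500 to 2000 bp, 73.6% from 2 to 3 kb, 82.6% from 3 to 5 kb and 79.2% at 5 kb or more. The strongest summit lay downstream of the start in 183 broad regions (65.4%), against 49.1% of narrower ones, and within 500 bp of it in 113 (40.4%). The coding genes of broad regions had a median length of 40.5 kb (30.8 to 54.7), against 27.6 kb for those of narrower regions and 17.2 kb for all coding genes of RefSeq.

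**Figure D2:**
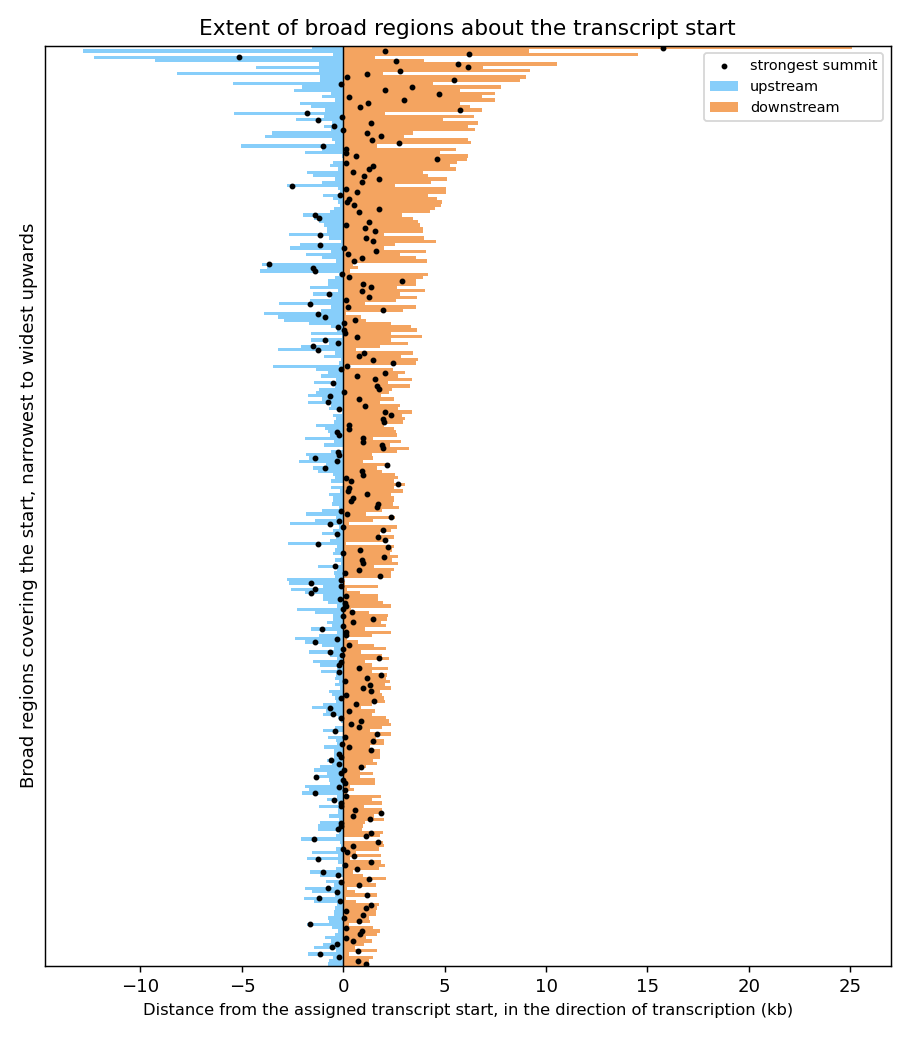
Each horizontal bar is 1 of the 280 broad regions of replicate 3 that cover the assigned transcript start, ordered by width, drawn as its length upstream (left of 0) and downstream (right of 0) of the start in kb along the direction of transcription; points mark the strongest summit. The downstream part is the longer one in 217 of the 280.

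Several of the widest regions lay over genes of developmental regulators, mostly over part of the gene. The widest, assigned to Hoxa10, ran over 26649 bp (chr6:52208231-52234879, GRCm38) with 64 summits. It touched 5 coding RefSeq genes, Hoxa10, Hoxa9, Hoxa7, Hoxa6 and Hoxa3, homeobox genes of axial identity, of which Hoxa9 and Hoxa7 lay whole in it, and the Hoxa10 assignment names only 1 of them. Folds at its strongest summits were 8.89, 4.55 and 4.18 in replicates 3, 2 and 1. Only 6.58% of its length was covered by the 4 regions of replicate 2 in it, so the continuous call was that of replicate 3.

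The second widest region, at Sox2, the HMG-box factor of neural stem cells, was covered more fully in replicate 2. It measured 21957 bp and had 55 summits. Its folds were 16.3 in replicate 3 and 7.17 in replicate 2, without a region in replicate 1. Replicate 2 had 9 regions in it, together covering 60.7% of its length. A neighbouring broad region of 7467 bp at Sox2ot, the noncoding transcript that overlaps Sox2, brought the stretch to 29424 bp of broad region within 29730 bp.

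At Zeb2 the region measured 15033 bp with 37 summits, and the folds were 15.4 in replicate 3, 8.32 in replicate 2 and 4.54 in replicate 1. Regions of replicate 2 covered 52.1% of it. At Bahcc1 the region measured 13282 bp with 30 summits, and the folds were 15.2, 8.15 and 5.84 in replicates 3, 2 and 1. Zeb2 and Bahcc1 thus had regions in all 3 replicates, with the lowest fold in replicate 1. The 13879 bp region of Mir124a-2, a gene of the neuronal miRNA miR-124, had the lowest fold of the 5 widest, with 6.31 in replicate 3 and 3.90 in replicate 2.

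Long noncoding RNA genes were among the widest. The region of C130071C03Rik, which hosts Mir9-2, had folds of 10.2 in replicate 3 and 6.43 in replicate 2. The region assigned to Gm20417 measured 11190 bp and contained the whole of Malat1, an abundant nuclear RNA, with folds of 9.20, 5.50 and 3.04 in replicates 3, 2 and 1. Replicate 2 covered 68.1% of it. The fold of replicate 1 there was at percentile 0.22 of the folds of its list, at the bottom. The region assigned to Frmd8os measured 6961 bp and touched Neat1, the RNA scaffold of paraspeckles. Its folds were 17.3, 11.2 and 6.67, the highest fold of replicate 2 inside a broad region. Pantr2, a transcript beside the neural factor gene Pou3f3, had folds of 15.3, 7.05 and 6.71. The highest fold of any broad region in replicate 3, 18.2, was at 2810410L24Rik, which had 6.996 in replicate 2 and 3.88 in replicate 1.

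Of the other regions of about 10 kb, those of Sall1 (a zinc finger factor of neural progenitors and microglia), Hoxb4 and Car2 (carbonic anhydrase 2, abundant in oligodendrocytes) had folds of 11.0, 6.44 and 12.2 in replicate 3 and 5.48, 4.32 and 6.66 in replicate 2, with no region in replicate 1. Brinp3 (a neural protein that inhibits cell cycling) and Tnrc18 (a chromatin protein) had regions in all 3 replicates. Folds in replicates 3, 2 and 1 were 8.87, 2.96 and 3.32 at Brinp3 and 9.22, 4.35 and 3.59 at Tnrc18. Those of Brinp3 were near the bottom of the lists of replicates 2 and 1, at percentiles 1.28 and 1.55. Meis1, Nkx2-2 (a homeodomain factor of the ventral cord and of oligodendrocytes), Fgfr2 (a fibroblast growth factor receptor), Pcdh9 (a protocadherin), 9430053O09Rik, Sept7 (a septin) and Nbea (a scaffold of vesicle traffic) had regions in replicates 3 and 2 only, with folds between 6.00 and 11.5 in replicate 3 and between 3.36 and 6.67 in replicate 2. Smad7, an inhibitor of TGF-β signalling, had folds of 13.1, 6.45 and 4.86 in replicates 3, 2 and 1, and 4 separate regions in replicate 1. Each of the 25 widest regions overlapped at least 1 region of replicate 2.

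**Figure D3:**
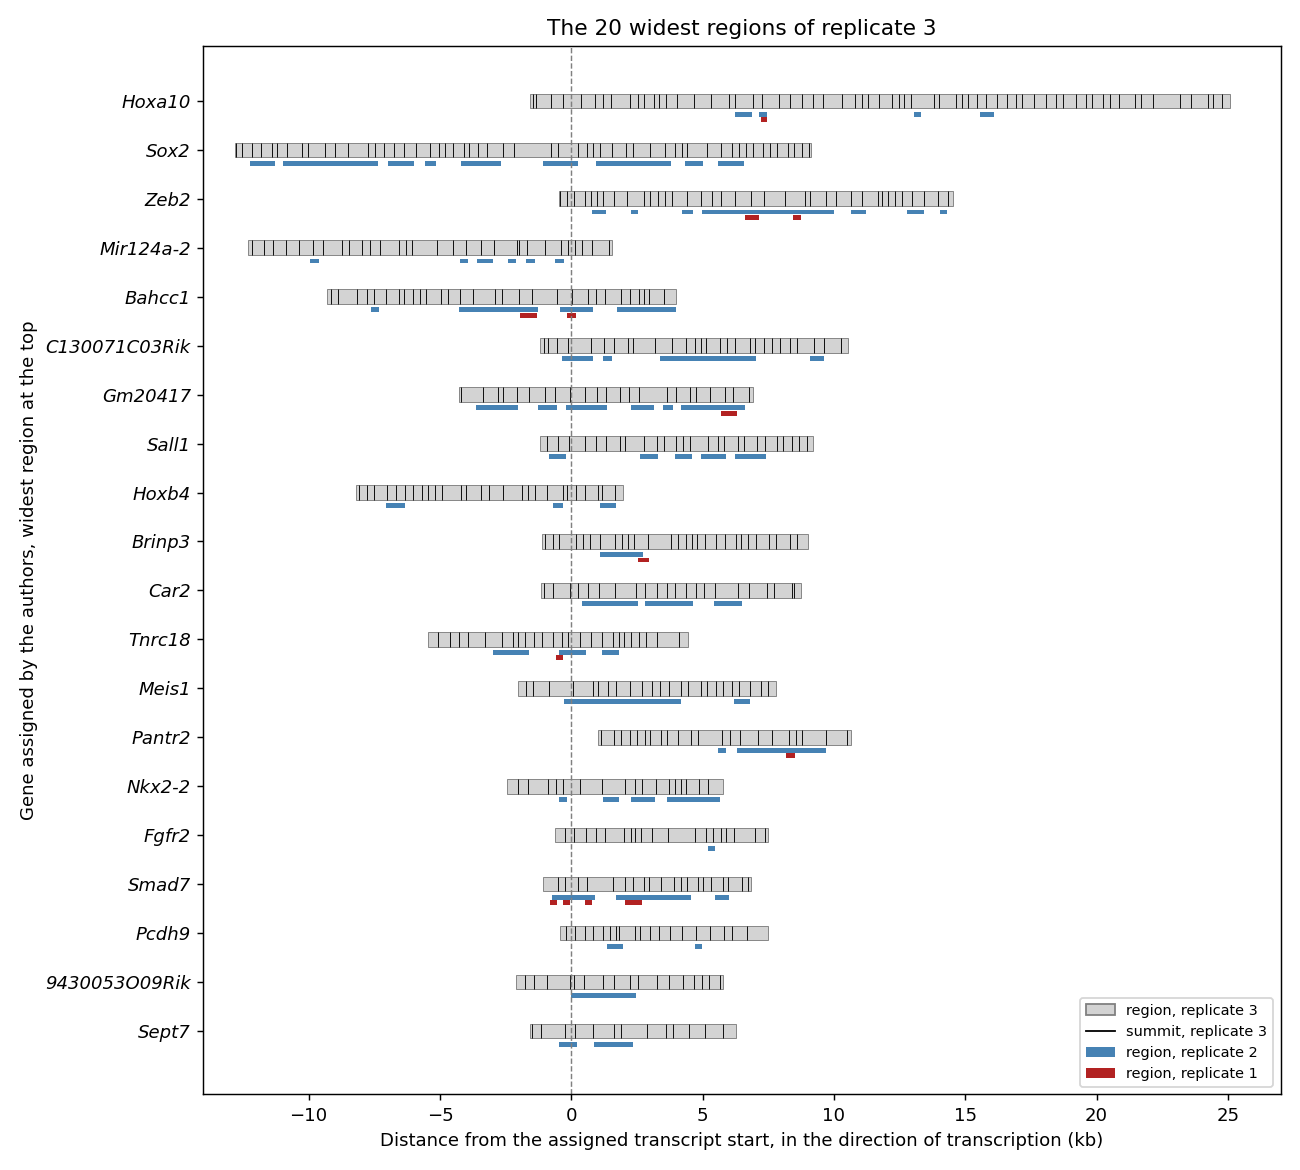
The 20 widest regions of replicate 3 (grey bars, widest at the top) are drawn by distance from the assigned transcript start in kb along the direction of transcription, with their summits (black ticks) and the regions of replicate 2 (blue) and replicate 1 (red) inside them. Regions of replicate 2 cover 60.7% of the Sox2 region and 6.58% of the Hoxa10 region, and replicate 1 appears in only some of them.

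The broad regions that ranked highest in all 3 replicates were mostly not the widest. Ranked by the lowest of their 3 percentiles of fold, each within its own list, the first was a region of 2018 bp assigned to the noncoding RNA Gm26698, with folds of 14.8, 7.62 and 10.5 in replicates 3, 2 and 1. The second was a region of 2015 bp assigned to Gm36967, with 9.18, 6.19 and 10.3. Bhlhe40, a repressor gene of the circadian clock, had 8.64, 5.70 and 7.56 in a region of 3158 bp. In these 3 regions, as at Rcbtb1 and Ank2 below, the fold of replicate 1 exceeded that of replicate 2, unlike at Zeb2 and Bahcc1. The median fold over all regions of a list was also higher in replicate 1 (4.86) than in replicate 2 (4.01). Rcbtb1 had 7.59, 5.42 and 6.41, and Ank2, which encodes an ankyrin, had 11.2, 4.62 and 6.39. Brd2, a bromodomain protein that reads acetylated histones, had 10.6, 7.23 and 5.77, with 3 regions in replicate 1 that covered 46.4% of it. Gsk3b, a kinase of Wnt and insulin signalling, had 8.99, 6.17 and 5.79. Rprd2, Pkd1 (polycystin 1), Dpysl2 (an axon guidance mediator), Mnt (a repressor that dimerises with Max) and Ppp2r3d (a phosphatase subunit) completed the 15, with Pantr2, Frmd8os and Bahcc1. Over the 15, folds ran between 5.21 and 17.3 in replicate 3, 4.53 and 11.2 in replicate 2, and 5.43 and 10.5 in replicate 1. The ranking chose these values, and folds of different replicates are relative to different backgrounds.

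**Figure D4:**
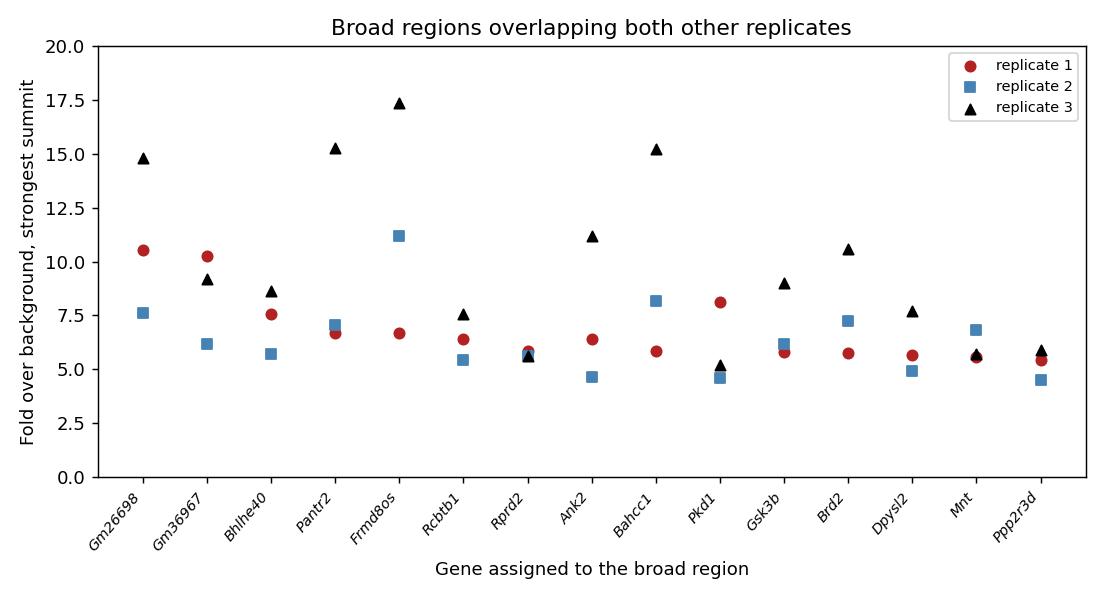
Fold over background of the strongest summit in replicates 1, 2 and 3 for the 15 broad regions that overlap both other replicates and have the highest worst percentile of fold, in that order from left to right. Replicate 3 is highest in 11 of the 15, and replicate 1 is highest at Gm36967, Pkd1 and Rprd2.

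Genes of the oligodendrocyte lineage, the myelin-forming cells of the cord, recurred among broad regions. Of 36 genes in this list, 19 (52.8%, 37.0 to 68.0%) had a broad region and all 36 had a region of some width in replicate 3. Over all coding genes 1.22% had a broad region, and of the 6934 coding genes with any region 3.84% did. This list and the others were chosen with earlier results of these data known, so the shares are descriptions and not tests. The 19 genes had 23 broad regions with a median width of 4255 bp, against 2874 bp for all broad regions, and a median fold of 8.22 in replicate 3, against 6.28. Regions of replicate 2 overlapped 20 of the 23 (87.0%, against 65.1% of all broad regions) with a median fold of 5.14, against 4.34 for all broad regions that replicate 2 overlapped. Regions of replicate 1 overlapped 0 of the 23, against 15.8% of all broad regions.

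The structural genes of myelin were among them. Mbp, myelin basic protein, had 3 broad regions with folds of 12.99, 5.42 and 4.79 in replicate 3 and 5.37, 5.06 and 4.45 in replicate 2. Cnp, Mog, Mobp, Cldn11 and Ermn, all components of the myelin sheath, had folds between 5.90 and 8.90 in replicate 3 and between 3.44 and 5.71 in replicate 2. The transferrin gene Trf, which oligodendrocytes express strongly, had 16.2 in replicate 3 and 5.32 in replicate 2. Qk, whose protein controls splicing of myelin transcripts, had 2 broad regions with 14.3 and 6.14 in replicate 3 and 7.17 and 5.62 in replicate 2. Among regulators, Olig2 had 9.01 and 8.22 in replicate 3 and 5.22 and 5.53 in replicate 2. Olig1 had 5.81 in replicate 3 and 4.52 in replicate 2. Gpr37 had 7.14 and 4.30, and Bin1, a membrane-curving protein, had 5.03 and 3.63. Sox10, the lineage factor that drives myelin genes, had 8.40 in replicate 3 and no region in the others, as did Ugt8a (galactolipid synthesis) with 8.00 and Zfp536 (a zinc finger repressor) with 5.42.

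Transcription factor families of the developing cord followed. Hox genes had broad regions in 9 of 39 (23.1%, 12.7 to 38.3%) and a region of any width in 23. Over all coding genes 1.22% had a broad region, and 3.84% of those with any region did. Of the 11 broad regions of Hox genes, 8 overlapped replicate 2 (72.7%, against 65.1% of all broad regions). Replicate 1 overlapped 1 of the 11. By RefSeq gene bodies with 1 kb around them, 16 of the 39 met a broad region. Their median fold of 5.98 in replicate 3 was below the 6.28 of all broad regions, while their median width of 4491 bp was above. These genes lay in the Hoxa and Hoxb clusters. In the Hoxd cluster a broad region of 4463 bp, assigned to the antisense gene Hoxd3os1 and so outside the count by assignment, touched Hoxd3 and had folds of 6.62, 3.73 and 4.97 in replicates 3, 2 and 1. At Hoxb, 9 broad regions from Hoxb8 to Hoxb2, 1 of them assigned to Hoxb3os, summed to 37138 bp with 95 summits within 77400 bp. Hoxb4, the widest of them, had folds of 6.44 and 4.32 in replicates 3 and 2, and Hoxb5 had 6.58 and 3.37. At Hoxa, 3 broad regions from Hoxa10 to Hoxa2 summed to 36140 bp, with Hoxa2 at 7.29 and 3.52. Neural transcription factor families had 9 of 39 genes with a broad region, led by Zeb2, Sall1, Meis1 and Tcf4, a basic helix-loop-helix partner with 8.61 in replicate 3 and 6.56 in replicate 2. Patterning factors had 6 of 56, led by Nkx2-2 with 11.5 and 4.83 and Nkx6-2, a homeodomain factor of myelinating cells, with 9.45 and 4.86. Sim1, a factor of ventral interneurons, had 4.63 in replicate 3 and no region in the others. Sox genes had 3 of 19, namely Sox2, Sox10 and Sox8. In the neural family, patterning and Sox lists, 29, 26 and 9 genes had a region of any width. Lists share genes, since Nkx2-2, Nkx6-2, Olig1, Olig2 and Sox10 also stand in the oligodendrocyte list and Sall1 and Nfib in those of microglia and astrocytes.

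Markers of other cell types had 0 to 2 genes with a broad region per list, where over all coding genes 1.22% had one, and 3.84% of those with any region. Microglial genes had 1 of 24 (4.17%), Sall1, and 4 with a region of any width. Sall1 also stands in the list of neural factors, and none of the other microglial markers, such as P2ry12, Tmem119, Cx3cr1 and Csf1r, had a broad region. Neuronal genes had 1 of 28 (3.57%), Snap25 (a synaptic vesicle fusion protein) with 3.74 in replicate 3 and 4.52 in replicate 2, although 21 had a region. Astrocyte genes had 2 of 19 (10.5%). Glul, glutamine synthetase, had 11.5, 5.97 and 5.16 in replicates 3, 2 and 1. Nfib, a nuclear factor I gene, had 6.27 in replicate 3 and 5.31 in replicate 2 in its wider region. A region of replicate 1 with a fold of 4.76 overlapped only 31 bp of that Nfib region, 0.44% of its length. Endothelial, mural and meningeal genes had 0 of 23 (interval to 14.3%) and 1 with any region.

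Among groups of housekeeping genes, ribosomal protein genes had 0 of 30 (interval to 11.4%) with a broad region and 20 with any region. Lysosomal genes had 0 of 33 (interval to 10.4%) and 26 with any region. Counts of 0 are near what the 3.84% of coding genes with a region would give in lists of this size. Immediate early genes had 2 of 23. Jun, a subunit of the AP-1 factor, had 8.44 in replicate 3 and 5.49 in replicate 2, and Klf6, a zinc finger factor, had 3.90 in replicate 3 and 4.19 in replicate 1. RUNX genes and cofactors had 1 of 16 (2 by RefSeq gene bodies), the corepressor Tle1, with 4.63 in replicate 3 and no region in the others.

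**Figure D5:**
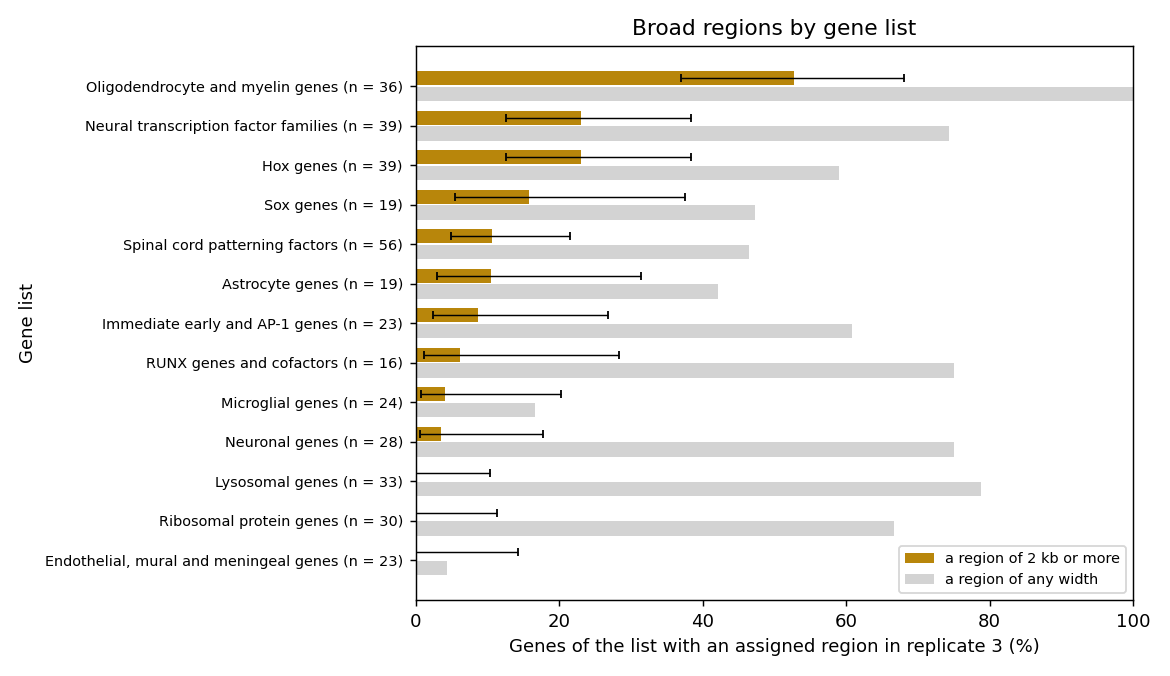
For 13 gene lists, bars give the percentage of genes with an assigned region of 2 kb or more in replicate 3 (ochre, with 95% Wilson intervals) and with a region of any width (grey); n is the number of genes in the list. Oligodendrocyte and myelin genes reach 52.8% for broad regions, while ribosomal and lysosomal genes stand at 0% with regions of any width in 20 of 30 and 26 of 33. The lists were chosen with earlier results of these data known.

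Of the 355 broad regions, 97 (27.3%) lay within 50 kb of another broad region, in 38 clusters, 12 of which held 3 or more. The same share was not measured for narrower regions, so it is only a description. Beside the Hox clusters these included 4 broad regions at 2810410L24Rik and Bahcc1 (25429 bp), 4 around Pou3f3 and the Pantr transcripts (20544 bp within 29144 bp), 4 at Chd2 (a chromatin remodeller) and its neighbours (15275 bp), and 3 each at C130071C03Rik (23073 bp), Zeb2 (20861 bp), Mbp (12038 bp) and Ebf3 (a neural transcription factor, 9224 bp). Some of the 27 genes with several broad regions would have had 1 wider region under a looser joining of peaks. At the noncoding gene Lncppara, 3 broad regions covered 15785 bp of 16387 bp, with folds of 9.51, 6.67 and 4.81 in replicate 3, and replicate 2 had regions in 2 of them with folds of 6.48 and 4.04.

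Away from promoters, broad regions were few. The widest of the distal intergenic ones was assigned to Mir148a at a distance of 86752 bp and measured 5655 bp, with folds of 7.75 in replicate 3 and 3.94 in replicate 2. A region of 3607 bp assigned to Irf2bp2, a transcriptional corepressor, at a distance of -71026 bp from its start, had 9.83, 5.57 and 4.00 in replicates 3, 2 and 1. An intronic region of 4482 bp at Slain1, a microtubule regulator, had 11.4 in replicate 3 and no region in the others. These 3, the clusters with their genes, the miRNA loci and the oligodendrocyte genes beyond Car2, Nkx2-2, Mbp and Qk were named after their values were seen. Distances of this size say only which gene was nearest in the authors' annotation.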

How the data were processed

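Runx1 ChIP-seq of mouse spinal cord was deposited as peak lists of 3 replicates of 1 group. Per the submitters' processing notes, reads were handled with Trimmomatic 0.38, FastQC, Bowtie2, SAMtools 1.9 and Picard 2.18.26, and peaks came from MACS2 2.1.2 on GRCm38. Their parameters and any control library were not stated in the notes (not given in the sources used here). Each deposited list, called by the authors per replicate, gives each summit a position, a score, its ratio to background (the fold), and the −log10 of p and of q. In the deposited annotated tables these regions carry a location class and 1 gene each.

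Regions were counted once, with the fold of the strongest summit. Starts are given from 1. A whole-number pileup and a Poisson background that give both the fold and −log10 p were found, within 0.001, for 100% of summits. Depth was otherwise unknown. Overlap needed 1 bp. Shares have 95% Wilson intervals and medians order-statistic intervals, for counting error only. No test across samples was possible with 1 group. Alternatives were other widths, stricter summits, 50% overlap, joined regions, other annotation and leaving out replicates. Named genes were those of the 25 widest regions, the 10 with most summits, the 15 strongest shared by all replicates, 5 on each side of the limit and up to 4 per gene list, with exceptions stated; 1 gene counted in a list is not reported by name. Members and the 13 gene lists, with 385 entries, were chosen with earlier results of these data known. Genes were matched to RefSeq GRCm38.p6 by symbol (98.9% of coding genes of broad regions). The code was tested on simulated data and used scipy 1.17.1 with numpy 2.4.6 and pandas 2.3.3 under Python 3.11.15, and matplotlib 3.10.9.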

Additional observations from a re-analysis of the deposited data

How the results depend on the processing

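Most values moved with the width limit and with the strictness of the summits, and none changed direction because none is a signed difference. With a limit of 1500 bp there were 636 regions, 52.5% overlapped replicate 2 and 10.8% both replicates, replicate 2 covered 20.6% of the length, 81.9% lay in the promoter class, and the medians were 5.83 for fold and 2.13 summits per kb. With 3000 bp there were 168 regions, 20.2% overlapped replicate 1, 78.6% replicate 2 and 19.6% both, 27.2% of the length was covered, and the median fold was 7.08. With summits of −log10 q of at least 5 in every replicate and deposited boundaries kept, 8.76%, 35.6% and 7.34% of broad regions overlapped replicate 1, replicate 2 and both. Replicate 2 then covered 16.1%, its regions inside had a median width of 911 bp and a median fold of 4.94, and there were 1.72 summits per kb. With a fold of at least 5, these values were 8.36%, 23.0%, 5.23%, 11.2%, 1179 bp, 5.70 and 0.817, and the median fold was 6.54. Joining regions within 1 kb gave 779 broad regions. The same limit gave 32 regions in replicate 2 and 0 in replicate 1. Without replicate 1 or without replicate 2, the overlap with both became that with the other alone, 15.8% to 65.1%. Chosen after seeing the data because the RefSeq table gives no strand, a RefSeq gene start or end inside or within 1 kb was found for 71.3% of broad regions, against 89.6% in the authors' promoter class. Over all regions of replicate 3 these shares were 53.8% and 62.6%. By RefSeq gene bodies with 1 kb around them, 16 Hox genes in place of 9 and 2 RUNX genes and cofactors in place of 1 met a broad region. The other 24 values stayed within the counting interval of the reported share or median or, for counts, within 1.5 times the reported count. The stricter limits leave fewer regions in replicates 1 and 2. No paired analysis was possible because there is 1 group.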
